A study of Mus musculus with 5 samples.

Results

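The mitotic kinesins described here are 10 microtubule motors of cell division, Kif11, Kifc1, Cenpe, Kif18a, Kif18b, Kif2c, Kif23, Kif20a, Kif20b and Kif4. They were chosen by name from the 54532 genes of the deposited read count table, and all 10 passed the filter on low counts. Expression was measured by RNA-seq in 5 lung tumours of mouse small cell lung cancer, all carrying the genotype label RPP, an abbreviation that stands unexplained. Of these, 3 were labelled LSN and 2 vehicle, where LSN stands for the compound that the series calls an Aurora A kinase inhibitor. Tumours were taken at necropsy and frozen as tissue, whereas the design text speaks of primary tumour cells, and neither the dose, the duration nor the age of the animals is stated in the labels. Whether each tumour came from its own animal is not stated either, so p-values reflect only the spread between the samples at hand, which may be technical.

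Kinesins are motor proteins that use ATP to walk along microtubules or to take microtubule ends apart. In mitosis, Kif11 pushes the spindle poles apart and Kifc1 pulls the other way, Cenpe and Kif18a bring chromosomes to the equator and hold them there, Kif2c and Kif18b shorten microtubules, and Kif23, Kif20a, Kif20b and Kif4 build the central spindle on which the cell divides. Their transcripts are made mainly in G2 and M phase, and Aurora A, a kinase of the spindle poles, acts beside them and phosphorylates some of them. Small cell lung cancer is a rapidly dividing neuroendocrine tumour that usually lacks the RB and p53 proteins.

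Library totals lay between 17439049 and 19766604 counts. All 10 small cell lung cancer markers fixed for the check were detected in every tumour. Of these, 6 had a log2 fold change above 0 and 4 below. Syp, a synaptic vesicle protein, was higher in every LSN tumour, at 170, 120 and 114 CPM (counts scaled to the library size, with TMM factors) in LSN replicates 1, 2 and 3 and 92.8 and 84.0 CPM in vehicle replicates 1 and 2. Uchl1, a ubiquitin hydrolase of neuroendocrine cells, was lower in every LSN tumour, at 472, 409 and 343 CPM, against 521 and 552 CPM in vehicle tumours. Normal lung tissue differed between the groups, since the 12 lung epithelial markers summed to between 370 and 1938 CPM in LSN tumours and between 6801 and 8715 CPM in vehicle tumours. None of the 12 was at 0 in any tumour, and 10 were lower in every LSN tumour, as were 8 of 10 endothelial markers. Of all genes tested, 10.4% were lower in every LSN tumour. T and NK cell markers, another possible source of dividing cells, summed to 23.4, 4.13 and 16.3 CPM in LSN tumours and 8.23 and 20.9 CPM in vehicle tumours, and their part in the results was not tested. In bulk tissue, fewer cells of a type and less RNA per cell cannot be told apart.

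Promoters of these motors were searched for the pair of short sequences known from genes of late cell cycle phases. The cell cycle genes homology region (CHR), spelled TTTGAA, is the site bound by the DREAM and B-MYB complexes through Lin54, and CCAAT boxes upstream of it are bound by NF-Y. RefSeq promoter windows of build GRCm38.p6, 250 bases before to 50 after each start, were given for 9 of the 10 genes and were searched on both strands for the CHR, for CCAAT and for the CHR variant spelled with TTTAAA. The CHR was found in 7 of the 9 windows, against 17.9% of all 32841 windows searched, and a CCAAT box in 6 of 9, against 37.4%. Both were present in 5 of the 9, against 6.95% of all windows. Within 50 bases either side of the start, a range chosen after the matches were seen, 6 of the 9 windows held a CHR, against 4.94% of all windows, and 6 held a CCAAT box, against 13.6%. The stretches from 100 bases before to 30 after the start are shown because they place these motifs beside one another. Capitals mark CHR motifs, the variant in Cenpe and CCAAT boxes, on either strand. On the other strand a CHR reads TTCAAA and a CCAAT box reads ATTGG.
Kif11, chr19:37376282-37376411, plus strand: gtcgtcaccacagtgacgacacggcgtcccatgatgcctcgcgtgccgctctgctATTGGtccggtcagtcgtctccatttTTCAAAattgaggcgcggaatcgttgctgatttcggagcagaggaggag
Kif23, chr9:61946770-61946899, minus strand: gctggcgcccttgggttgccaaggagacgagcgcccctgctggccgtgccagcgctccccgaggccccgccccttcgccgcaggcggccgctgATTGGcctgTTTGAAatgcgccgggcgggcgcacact
Kif18b, chr11:102925095-102925224, minus strand: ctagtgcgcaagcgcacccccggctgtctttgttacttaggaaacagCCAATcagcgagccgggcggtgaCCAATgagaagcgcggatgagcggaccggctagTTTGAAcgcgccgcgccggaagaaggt
Kif20b, chr19:34922258-34922387, plus strand: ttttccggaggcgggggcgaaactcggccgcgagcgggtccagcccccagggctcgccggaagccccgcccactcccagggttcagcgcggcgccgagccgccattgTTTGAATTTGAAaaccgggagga
Kif4, chrX:100625965-100626094, plus strand: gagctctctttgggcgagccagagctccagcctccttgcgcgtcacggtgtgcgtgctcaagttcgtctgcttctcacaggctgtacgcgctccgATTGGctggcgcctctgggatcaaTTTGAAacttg
Kifc1, chr17:33890604-33890733, minus strand: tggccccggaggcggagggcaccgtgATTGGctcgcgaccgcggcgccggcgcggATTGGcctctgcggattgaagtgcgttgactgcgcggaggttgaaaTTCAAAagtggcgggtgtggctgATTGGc
Cenpe, chr3:135212463-135212592, plus strand: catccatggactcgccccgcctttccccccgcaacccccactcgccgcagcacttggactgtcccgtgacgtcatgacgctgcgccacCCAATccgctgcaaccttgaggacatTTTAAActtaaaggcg
Kif18a, chr2:109280638-109280767, plus strand: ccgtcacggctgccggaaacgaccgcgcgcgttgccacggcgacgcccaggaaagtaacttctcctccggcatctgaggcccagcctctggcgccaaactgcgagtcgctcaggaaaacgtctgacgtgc

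In Kif23 and Kif18b the CHR began at bases 3 and 4, counted with the RefSeq start as 1, and in Kifc1 it began at 2. The deposited start of Kif18b was the same as in RefSeq. Those of Kif23, Kifc1, Cenpe and Kif11 lay 25, 28, 26 and 21 bases from the RefSeq start, so positions this close depend on the start used. Kif20b had 2 CHR motifs in tandem, beginning at 8 and 14, and no CCAAT box in its window. The CHR variant was present in 2 of the 9 windows, those of Cenpe and Kif2c, against 13.2% of all windows. Cenpe also had a CCAAT box 12 bases before the RefSeq start. E2F sites, spelled TTCCCGC or else TTGGCGC, were also searched on both strands and were present in 1 of the 9 windows, that of Kif18a, against 6.81% of all windows. Kif18a had neither a CHR, its variant nor a CCAAT box in its window. The window of Kif2c lay around a start 3867 bases inside the deposited gene, and that of Kif4 around a start 328 bases inside, so their matches may not describe the promoter in use. A match is a run of letters and was not tested for binding.

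**Figure D1:**
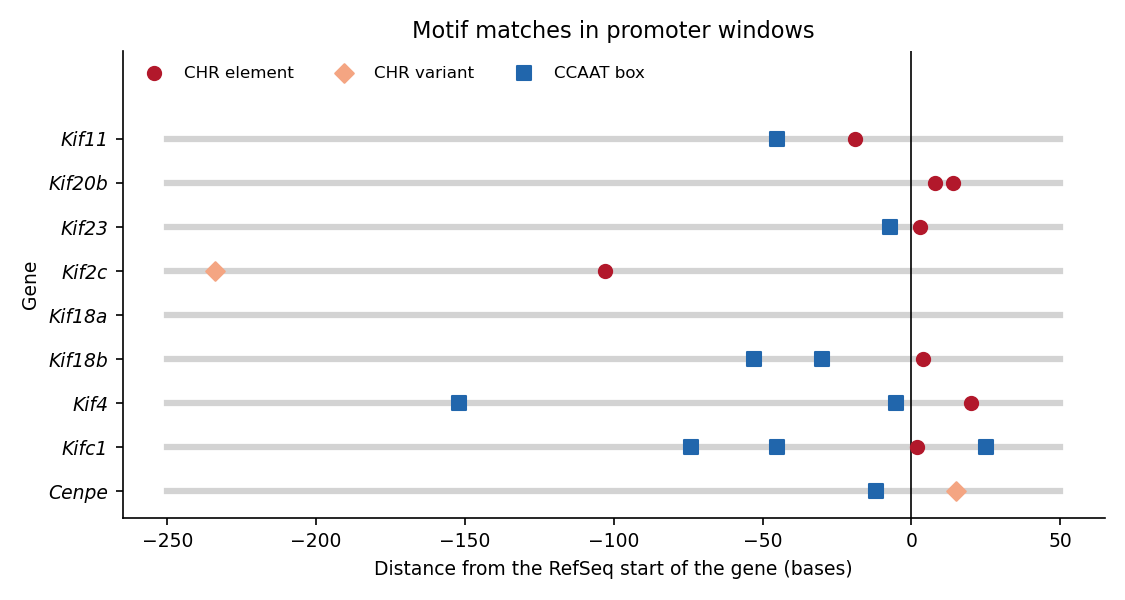
Positions of CHR elements (red circles), the CHR variant (orange diamonds) and CCAAT boxes (blue squares) in the promoter windows of 9 mitotic kinesins, by distance in bases from the RefSeq start (vertical line); grey bars are the windows searched. In 6 genes a CHR lies within 50 bases of the start, and Kif18a shows no match.

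The 10 genes together took 0.152, 0.107 and 0.218% of all counts in LSN replicates 1, 2 and 3 and 0.125 and 0.166% in vehicle replicates 1 and 2. Their summed level was 1629 ± 573 CPM with LSN (SD, n = 3) and 1406 ± 302 CPM with vehicle (SD, n = 2). The groups overlapped, and LSN tumours gave both the lowest sum, 1132 CPM in replicate 2, and the highest, 2256 CPM in replicate 3. Single counts per gene and tumour lay between 858 and 10302, for which counting error alone is 0.985 to 3.41%, far below the spread between tumours.

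Among the motors that set the distance between spindle poles, Kif11 (chromosome 19, 37376403 to 37421859) slides antiparallel microtubules apart and is needed for a spindle with separate poles. Kif11 was at 348, 234 and 545 CPM in LSN tumours and 316 and 488 CPM in vehicle tumours. Both vehicle values lay inside the range of the LSN tumours, and the log2 fold change was -0.10 ± 0.42 (SE), the only one of the 10 below 0 (edgeR, adjusted p = 0.9996). Kifc1 (chromosome 17, 33875666 to 33890661) moves toward microtubule minus ends, focuses the poles and clusters surplus centrosomes. Kifc1 was at 164, 126 and 217 CPM in LSN tumours and 126 and 186 CPM in vehicle tumours, again with overlapping groups and a log2 fold change of 0.11 ± 0.32 (SE). Its transcript was 98.0% identical over 2326 aligned bases to that of Kifc5b, a gene on the same chromosome, and 10.4% of its 150-base windows were found unchanged in Kifc5b, so reads may be shared between the genes and the values of each are uncertain. With the counts of both summed, the log2 fold change was 0.08.

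Cenpe (chromosome 3, 135212537 to 135273611), the kinetochore motor that carries chromosomes to the spindle equator, stood furthest from 0. Cenpe was at 186, 175 and 260 CPM in LSN tumours and 113 and 150 CPM in vehicle tumours. Every LSN tumour lay above both vehicle tumours, with means of 207 ± 46.2 CPM (SD, n = 3) and 132 ± 26.0 CPM (SD, n = 2). The log2 fold change of 0.65 had a 95% interval from -0.05 to 1.35 and did not pass (edgeR, p = 0.0630, adjusted p = 0.9996), and an exact permutation test over the tumours gave p = 0.1, the smallest that 2 tumours against 3 allow. Kif18a (chromosome 2, 109280738 to 109341747), which damps the swings of chromosomes on the metaphase plate, was at 61.3, 59.6 and 68.2 CPM in LSN tumours and 46.1 and 64.5 CPM in vehicle tumours. Vehicle replicate 1 was the low tumour, and vehicle replicate 2 fell among the LSN values, at a log2 fold change of 0.19 ± 0.26 (SE). The coefficient of variation over the 5 tumours was 14.0% for Kif18a, the lowest of the 10, and 30.6% for Cenpe.

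Of the motors that shorten microtubules, Kif2c (chromosome 4, 117159639 to 117182639), a depolymerase at centromeres that undoes wrong attachments, varied most, with a coefficient of variation of 44.7%. Kif2c was at 104, 69.2 and 184 CPM in LSN tumours and 68.8 and 100.1 CPM in vehicle tumours. Kif18b (chromosome 11, 102905529 to 102925124), which limits the length of astral microtubules, was at 118, 86.5 and 183 CPM in LSN tumours and 73.7 and 117 CPM in vehicle tumours. The order of the 5 tumours was the same for both genes, and their log2 fold changes were 0.49 ± 0.47 and 0.44 ± 0.40 (SE), the largest after Cenpe. The ratio of Kif2c to Kif18b CPM was 0.878, 0.800 and 1.01 in LSN tumours and 0.934 and 0.857 in vehicle tumours. In contrast, Kif18b and its paralogue Kif18a did not keep one ratio, at 1.93, 1.45 and 2.68 in LSN tumours and 1.60 and 1.81 in vehicle tumours.

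Of the motors of the central spindle and of cytokinesis, Kif23 (chromosome 9, 61915905 to 61946774), the motor of the centralspindlin complex, was at 140, 118 and 316 CPM in LSN tumours and 154 and 194 CPM in vehicle tumours. LSN replicates 1 and 2 were below both vehicle tumours and LSN replicate 3 above both, so that the log2 fold change was 0.13 ± 0.48 (SE) and was -0.44 without LSN replicate 3. Kif20a (chromosome 18), which moves the Aurora B complex to the central spindle at anaphase, was at 117, 58.4 and 165 CPM in LSN tumours and 90.8 and 82.5 CPM in vehicle tumours. The log2 fold change of Kif20a was 0.39 ± 0.46 (SE), and 29.3% of its annotated exon bases overlap exons of Cdc23 on the opposite strand, whose reads the unstranded libraries cannot tell apart. Cdc23 had 1837, 888 and 2322 counts in LSN tumours and 1588 and 1976 counts in vehicle tumours, lowest and highest in the same tumours as Kif20a.

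Kif20b (chromosome 19, 34922361 to 34975745), a midzone motor needed for the last step of division in mouse neural progenitors, was at 102, 107 and 141 CPM in LSN tumours and 96.0 and 101 CPM in vehicle tumours. It was the other member higher in every LSN tumour, but LSN replicate 1 exceeded vehicle replicate 2 by less than the counting error, at 101.8 against 100.9 CPM (edgeR log2 fold change 0.24 ± 0.24 SE, adjusted p = 0.9996). Kif4 (chromosome X, 100625737 to 100727214), a chromosome-bound motor that works with Prc1 to set the length of the midzone, was at 161, 97.8 and 178 CPM in LSN tumours and 106 and 136 CPM in vehicle tumours. Its groups overlapped at a log2 fold change of 0.27 ± 0.33 (SE), and 15.1% of its exon bases overlap Pdzd11 on the opposite strand.

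**Figure D2:**
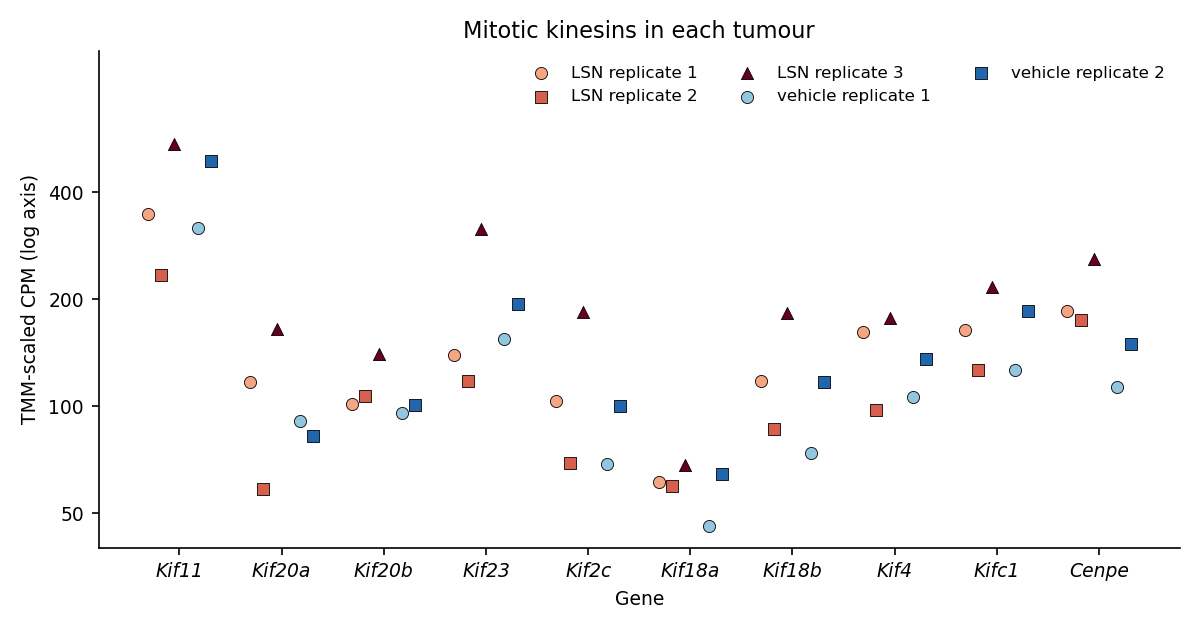
TMM-scaled CPM of each mitotic kinesin (log axis) in the 3 LSN tumours (red symbols, left within each gene) and the 2 vehicle tumours (blue symbols, right); each point is 1 tumour. LSN replicate 3 (triangles) is the highest tumour for all 10 genes, and Cenpe and Kif20b are the genes whose groups do not overlap.

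In the comparison of LSN with vehicle, which after the title of the series asks about cells held in mitosis, 0 of the 10 genes passed an adjusted p of 0.05 in edgeR. The same held for 0% of the 17906 genes tested, and the 10 genes had 0 at an unadjusted p under 0.05, against 4.27% of all genes. DESeq2 also called 0 of the 10, against 0.539% of the 18547 genes to which it gave an adjusted p, with 0 at an unadjusted p under 0.05, against 4.02%, and limma-voom called 0 of 10, with 0 at an unadjusted p under 0.05, against 4.79%. Log2 fold changes were above 0 for 9 of the 10 genes, against 53.2% of all genes, and their median was 0.26, against 0.03 over all genes. All LSN tumours lay above both vehicle tumours for 2 of 10 genes, against 8.48% of all genes, and below both for 0 of 10, against 10.4%. Every one of the 10 intervals of 95% held 0. Upper bounds ran from 0.84 for Kif20b to 1.66 for Kif2c, and lower bounds from -1.16 for Kif11 to -0.05 for Cenpe. Differences within these bounds, in either direction, are not excluded by these tumours.

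The median rested on LSN replicate 3 and was 0.06 without it. Leaving out vehicle replicate 1 gave 0.13, and leaving out either replicate 2 (LSN or vehicle) gave 0.44. With the mean of the normal lung markers as a covariate, the median was 0.86 and 0 of the 10 genes passed. That mean was 6.32, 3.47 and 5.44 log2 CPM in LSN tumours and 7.60 and 7.92 log2 CPM in vehicle tumours. The groups did not overlap on it, so treatment and normal lung content cannot be told apart in this fit.

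**Figure D3:**
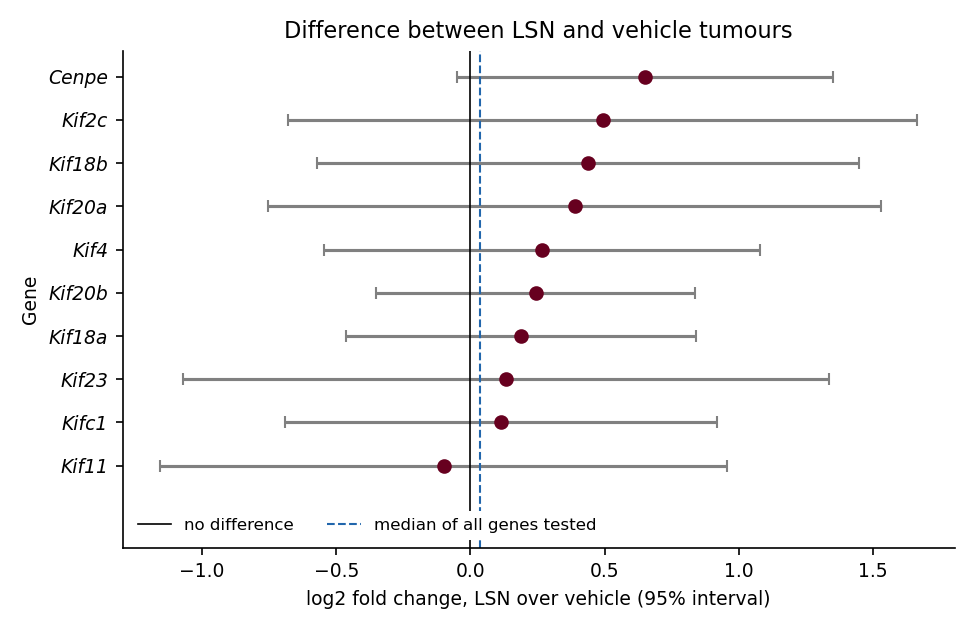
Log2 fold change of LSN over vehicle for each mitotic kinesin from edgeR (points) with its 95% interval (bars), the line of no difference and the median of all 17906 genes tested (dashed, 0.03). All 10 intervals cross 0, and the interval of Cenpe reaches from -0.05 to 1.35.

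Single tumours differed from one another, and these differences ran through most of the family. LSN replicate 3 was the highest of the 5 tumours for all 10 genes, whereas 20.4% of all genes tested were highest there. Its ratio to the mean of LSN replicates 1 and 2 was 1.64 in the median, from 1.13 for Kif18a to 2.45 for Kif23. The lowest tumour was LSN replicate 2 for 4 genes, against 25% of all genes, and vehicle replicate 1 for 6, against 16.1%. The 4 lowest in LSN replicate 2 were Kif11, Kif20a, Kif23 and Kif4. Each gene was centred on its own mean over the tumours, on the log2 CPM scale, and the mean of these profiles was 0.05, -0.35 and 0.59 in LSN replicates 1, 2 and 3 and -0.33 and 0.05 in vehicle replicates 1 and 2. Kifc1 lay closest to that mean profile, with a root mean square difference of 0.10 over the 5 tumours, and Kif20a furthest, with 0.27, where the median of all genes tested was 0.57. The members set the profile, so their closeness to it is a description.

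**Figure D4:**
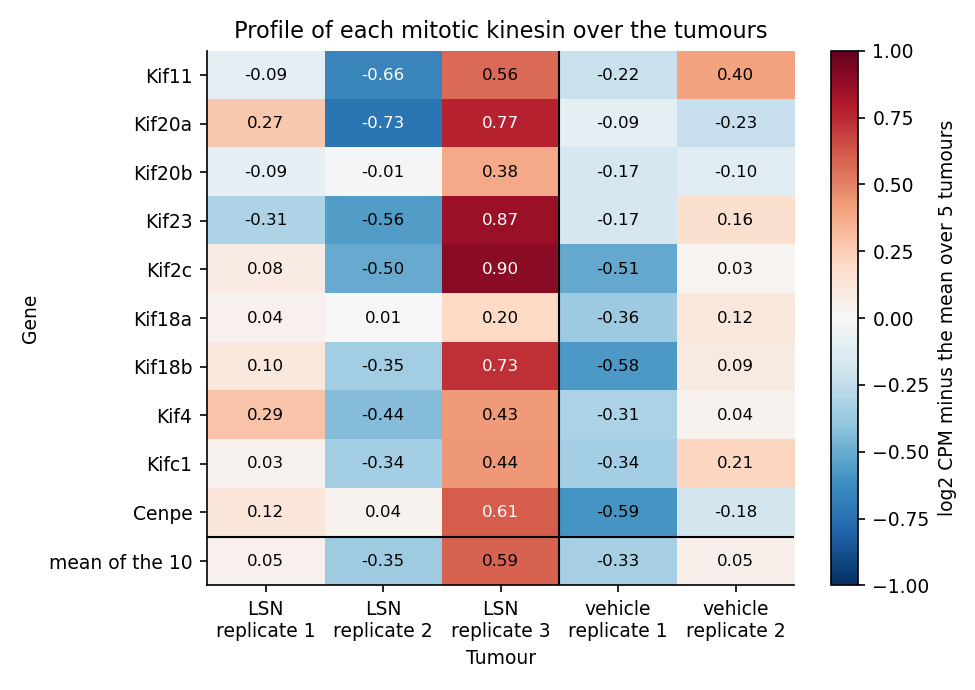
Log2 CPM of each mitotic kinesin minus its mean over the 5 tumours (red above, blue below), with LSN tumours left and vehicle tumours right of the line and the mean of the 10 genes in the last row. The column of LSN replicate 3 is above 0 in every row, between 0.20 for Kif18a and 0.90 for Kif2c, and LSN replicate 2 and vehicle replicate 1 hold the lowest values.

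Within the set, the ratios of Kif11 and of Kif23 to Cenpe did not overlap between the groups. This comparison was chosen after the values were seen and is given with no test. Cenpe made up 12.4, 15.5 and 11.5% of the summed CPM of the 10 genes in LSN tumours and 9.51 and 9.27% in vehicle tumours. Kif11 made up 23.2, 20.7 and 24.2% in LSN tumours and 26.5 and 30.2% in vehicle tumours. The ratio of Kif11 to Cenpe CPM was 1.87, 1.34 and 2.10 in LSN tumours and 2.79 and 3.25 in vehicle tumours, without overlap. That of Kif23 to Cenpe was 0.753, 0.672 and 1.21 in LSN tumours and 1.36 and 1.29 in vehicle tumours, also without overlap. Cenpe is in both ratios and was itself higher in every LSN tumour, so they are not separate results. The other ratios formed, of Kif20a to Kif20b, Kif23 to Kif20a, Kif18b to Kif18a, Kif11 to Kif4 and Kif2c to Kif18b, overlapped between groups. These ratios are taken within a tumour, so library scaling does not enter them.

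Per kilobase of gene, Kif11 was the most abundant of the 10, at 80.2 ± 26.5 CPM per kb over the 5 tumours (SD), followed by Kifc1 at 48.1 ± 11.5 CPM per kb. Kif18a was the least abundant, at 6.10 ± 0.852 CPM per kb, below Kif20b at 15.7 ± 2.59 CPM per kb. Between these came Kif18b, Kif20a, Kif4, Kif2c, Kif23 and Cenpe, from 32.4 to 20.5 CPM per kb. Of the 9 neighbouring pairs in this order, 8 had overlapping ranges over the tumours and Kif20b and Kif18a did not. The annotation behind the deposited lengths is not named, so whether they were built alike over the 10 genes is not known. Set beside GENCODE M21, they matched no single kind of length. For Kif18a and Kif23 they equal the union of all annotated exons in GENCODE M21, 9832 and 7901 bases, against 3369 and 3398 bases in the longest protein coding transcript, whereas the 4819 bases of Kif11 are those of its coding transcript, against a union of 7461. With union lengths for all, Kif11 was at 51.8 ± 17.1 CPM per kb, against 48.0 ± 11.4 CPM per kb for Kifc1, and was above it in 3 of 5 tumours. With transcript lengths, Kif18a was at 17.8 CPM per kb, Kif23 at 54.3 CPM per kb in the third place, and all 9 neighbouring pairs overlapped, while Kif11, Kifc1, Kif20b and Kif18a kept their places.

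Other kinesins with roles in mitosis showed no common direction. Of the 6 genes of that list, Kif2b was at 0 counts in all 5 tumours, and of the 5 tested 2 had a log2 fold change above 0 and 3 below, with a median of -0.01. Kif14, a partner of citron kinase in cytokinesis, was at 110, 57.4 and 109 CPM in LSN tumours and 59.4 and 101 CPM in vehicle tumours. Kif15, which can take over from Kif11 in human cells, was at 74.7, 52.6 and 164 CPM in LSN tumours and 103 and 100.1 CPM in vehicle tumours, a log2 fold change of -0.06 ± 0.51 (SE). Kif22, a chromosome-arm motor, had a log2 fold change of 0.07, Kif2a, a depolymerase at spindle poles, one of -0.07, and Kifc5b one of -0.01. In edgeR, 0 of these 5 genes reached an unadjusted p under 0.05, and all 5 overlapped between groups.

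The 26 kinesins of transport and cilia were tested in full, with 11 above 0, 15 below and a median log2 fold change of -0.18. At an unadjusted p under 0.05 in edgeR there was 1 gene of the 26, against 4.27% of all genes. That gene, Kif6, a kinesin of cilia, was at 0.497, 0.107 and 0.318 CPM in LSN tumours and 2.04 and 2.06 CPM in vehicle tumours (edgeR, log2 fold change -2.72 ± 0.78 SE, adjusted p = 0.9996). Its counts were 9, 2 and 6 in LSN tumours and 38 and 37 in vehicle tumours. It passed the filter on low counts through the vehicle tumours only. Kif9, another kinesin of motile cilia, was at 2.32, 4.61 and 3.23 CPM in LSN tumours and 9.90 and 5.97 CPM in vehicle tumours. Both were lower in every LSN tumour, the only 2 of the 26, against 10.4% of all genes. Kif24 was the only 1 of the 26 higher in every LSN tumour, against 8.48% of all genes, at a log2 fold change of 0.74. Kif27 and Kif19a, of the same list, had log2 fold changes of 0.44 and 0.12, with overlapping groups. Of the markers of normal lung epithelium, 10 of 12 were lower in every LSN tumour. Foxj1, of that list, overlapped, at 20.1, 55.3 and 52.0 CPM in LSN tumours and 68.5 and 48.5 CPM in vehicle tumours. The part of normal lung in the values of these kinesins was not tested. Kif5b, the ubiquitous transport motor, was at 637 ± 227 CPM with LSN (SD, n = 3) and 515 ± 103 CPM with vehicle (SD, n = 2), and Kif1a, a motor of synaptic vesicle precursors, at 253 ± 141 CPM with LSN and 194 ± 61.9 CPM with vehicle.

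**Figure D5:**
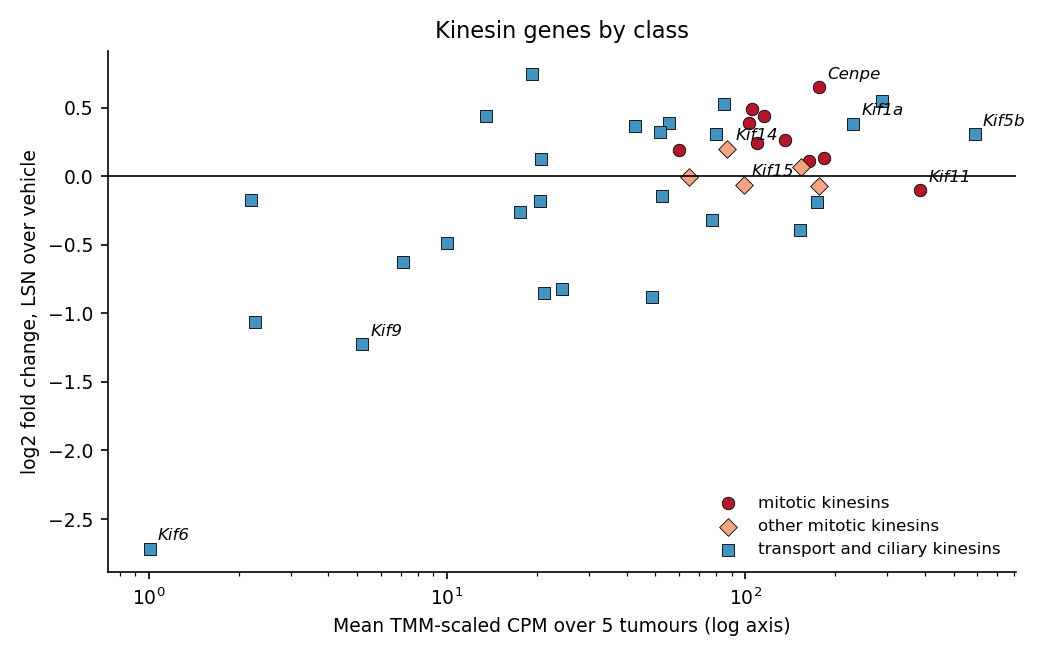
Log2 fold change of LSN over vehicle (edgeR) against mean CPM over the 5 tumours (log axis) for the 10 mitotic kinesins (red circles), 5 other mitotic kinesins (orange diamonds) and 26 transport and ciliary kinesins (blue squares). The mitotic kinesins lie between -0.10 (Kif11) and 0.65 (Cenpe), and Kif6 and Kif9 are the lowest points, at -2.72 and -1.23.

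Partners and regulators of the motors were above 0 for 23 of 27 genes, against 53.2% of all genes, with a median log2 fold change of 0.20. Of the 27, 0 reached an unadjusted p under 0.05 in edgeR, against 4.27% of all genes. Racgap1, the partner of Kif23 in centralspindlin, was at 564, 410 and 705 CPM in LSN tumours and 400 and 606 CPM in vehicle tumours, and Prc1, the bundler that recruits Kif4, at 233, 273 and 370 CPM in LSN tumours and 237 and 246 CPM in vehicle tumours. Tpx2, which binds both Aurora A and Kif11, was at 290 ± 54.4 CPM with LSN (SD, n = 3) and 253 ± 35.1 CPM with vehicle (SD, n = 2). Bub1b, the checkpoint kinase that binds Cenpe, was at 178 ± 61.2 CPM with LSN and 150 ± 21.4 CPM with vehicle. Aurka, the gene of the targeted kinase, had a log2 fold change of 0.16 and Aurkb one of 0.19, both with overlapping groups. The genes of this list with the smallest p were Hmmr, a spindle-associated protein, at 200, 160 and 327 CPM in LSN tumours and 120 and 140 CPM in vehicle tumours, and Numa1, which anchors microtubules at spindle poles, at 363, 445 and 492 CPM in LSN tumours and 292 and 321 CPM in vehicle tumours. Both were higher in every LSN tumour, with log2 fold changes of 0.82 ± 0.36 and 0.50 ± 0.23 (SE), and neither passed (adjusted p = 0.9996 each, edgeR). Of the 27 genes, 4 were higher in every LSN tumour, against 8.48% of all genes, and 1 was lower in every one, against 10.4%.

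Transcription regulators of late cell cycle genes had a median log2 fold change of 0.14, with 15 of 21 above 0, against 53.2% of all genes. At an unadjusted p under 0.05 in edgeR there were 0 of the 21, against 4.27% of all genes. Foxm1, an activator of many of these promoters, was at 180, 108 and 224 CPM in LSN tumours and 104 and 201 CPM in vehicle tumours, low in LSN replicate 2 and vehicle replicate 1 as the motors were. Mybl2, the B-MYB subunit, did not follow that order, at 52.5, 55.8 and 56.8 CPM in LSN tumours and 49.2 and 84.0 CPM in vehicle tumours. Rbl1 and Lin37, components of DREAM, gave the smallest p-values here, with log2 fold changes of -0.61 and 0.41. Proliferation genes that are not motors had a median of 0.26 over 12 genes, of which 10 were above 0, against 53.2% of all genes. Of these 12, 0 were at an unadjusted p under 0.05 in edgeR. Mki67, the usual marker of dividing cells, was at 1032, 867 and 1344 CPM in LSN tumours and 843 and 1309 CPM in vehicle tumours, and Top2a, a topoisomerase of mitotic chromosomes, at 1181, 824 and 2209 CPM in LSN tumours and 718 and 1174 CPM in vehicle tumours. Tyms, which makes thymidylate, and Mcm5, a subunit of the replicative helicase, gave the smallest p-values among the proliferation genes. Both were higher in every LSN tumour, with log2 fold changes of 0.40 and 0.34. Of the 12 genes, 4 were higher in every LSN tumour, against 8.48% of all genes, and 0 were lower in every one, against 10.4%. Relative to the mean of the 12 proliferation genes, the mean log2 CPM of the 10 motors was lower by 1.48, 1.71 and 1.25 in LSN tumours and by 1.63 and 1.38 in vehicle tumours, so the groups overlapped on that scale too.

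Profiles over the 5 tumours were compared with the mean profile of the motors for tested protein coding genes outside the set. Genes with names of predicted genes, pseudogenes or clones were left out of this order. The 5 most alike were Taf5, Stag1, Eomes, Npm3 and Zbtb5, with root mean square differences of 0.050, 0.051, 0.052, 0.054 and 0.058 on the log2 CPM scale. Of all genes tested, 1% were within 0.158. Stag1, a subunit of cohesin, was at 209, 153 and 276 CPM in LSN tumours and 156 and 210 CPM in vehicle tumours. Eomes was near 1 CPM or below in all tumours, so its place in this order rests on few counts.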

How the data were processed

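RNA-seq of 3 LSN and 2 vehicle tumours was used, grouped by the treatment label. Per the labels' protocols, libraries were not stranded and paired ends were aligned by STAR to mm10, and the authors used DESeq2 for differential expression. The sources used here name no counting program, annotation or STAR version. Deposited values are counts of reads, whole numbers without normalization, with totals between 17439049 and 19766604 per tumour. Counting error, taken from single counts, does not cover the spread between tumours. The intervals and standard errors of log2 fold changes come from the edgeR fit and do include that spread. The authors also deposited a length in bases for each gene, a value used here for CPM per kb.

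The counts were fitted with edgeR 4.0.16 in R 4.3.3 (TMM scaling, filterByExpr with min.count 10 and min.total.count 15, robust quasi-likelihood F test, Benjamini-Hochberg over 17906 genes, 3 residual degrees of freedom). Standard errors were taken as the log2 fold change over the square root of F. Log2 CPM used a prior count of 2. Alternatives were DESeq2 1.42.0, limma-voom 3.58.1, RLE scaling, total counts, 2 other count filters, a fit that was not robust, a covariate of normal lung markers, and leaving out each tumour in turn. Summing Kifc1 with Kifc5b and the use of transcript or exon union lengths were chosen after the data were seen.

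Exon overlaps and transcripts came from GENCODE M21 and promoters from RefSeq, build GRCm38.p6. Kif20a is given without sequence. The members and all lists were chosen with earlier results of these data known. The named genes were the 10 members, the 2 genes of each pathway list with the smallest p, a fixed set of spindle genes and the 5 genes of most similar profile. Those 5 were taken from protein coding genes outside the members, without predicted genes, pseudogenes or genes with clone names.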

Additional observations from a re-analysis of the deposited data

How the results depend on the processing

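In all, 0 of the 10 motors passed the adjusted threshold under any of the 13 other settings tried, DESeq2 and limma-voom included, and the count over all genes was 0 in each except DESeq2, which called 100 genes. At an unadjusted p under 0.05, edgeR gave between 407 and 1181 genes over these settings and limma-voom 858, with 0 motors in any. The median log2 fold change of the motors was between 0.06 and 0.44 when single tumours were left out. With the covariate of normal lung markers, on which the groups did not overlap, the median was 0.86. Of 131 values of single motors under an alternative, 8 changed sign. Kif11 became positive with the normal lung covariate (0.72), without vehicle replicate 2 (0.25) or LSN replicate 2 (0.15), over a range of -0.47 to 0.25 with single tumours left out. Kif23 became negative when vehicle replicate 1 (-0.013) or LSN replicate 3 (-0.44) was left out, likewise Kifc1 (-0.13 and -0.11 in these runs), and Kif18a without vehicle replicate 1 (-0.023), with upper ends of 0.39, 0.42 and 0.45. Cenpe stayed between 0.45 and 0.87 in these runs. The cause was not tested. Leaving out a vehicle tumour leaves 1, assumed to vary like the LSN tumours. No paired analysis was possible because the labels give no replicate numbers shared between the groups. Counting error was at most 3.41% for these genes.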
